A study of Mus musculus with 3 samples.

Results

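The miRNA hairpins Mir132, Mir212, Mir184 and Mir338 were examined in small RNA-seq libraries of MIN6 cells. They were chosen by name, for their known roles in beta cell growth and in the response to glucose or cAMP, and are 4 of the 172 hairpins that could be placed in the alignments by sequence, out of 1005 hairpin sequences in the RefSeq table used. MIN6 cells are an immortal line grown from an insulin-producing tumor (insulinoma) of a mouse, so the libraries represent dividing tumor cells and not primary islets. The libraries form 1 group of 3 replicates, all grown in DMEM with 25 mM glucose, without any other treatment. The study's methods call them biological replicates, and the labels do not say whether they came from separate cultures. The SD given below is the spread between these libraries, and no comparison of conditions was possible.

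A miRNA hairpin is cut out of a primary transcript by Drosha and then cut at its loop by Dicer, which leaves a duplex of a 5p and a 3p arm, and usually one arm is retained in an Argonaute protein. Bases 2 to 8 of the retained arm, the seed, determine most of its target pairing, so a read that starts even 1 base later (a 5′-shifted isomiR) has another seed. The 3′ end can be extended after cutting by enzymes that add U or A, which gives reads whose last bases do not match the genome. miR-132 and miR-212 come from the same primary transcript, which is induced through CREB in neurons and in endocrine cells. miR-184 represses Argonaute2 and falls when beta cells expand in insulin resistance, and miR-338-3p falls when beta cell mass expands in pregnancy or obesity and after a rise of cAMP.

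The mature sequences explain why the arms are grouped as they are below, and are given from the RefSeq table (GRCm38.p6), 5′ to 3′, with the seed in capitals. The 3p arms of Mir132 and Mir212 carry the same seed, and no other mature miRNA of the table carries it.

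miR-132-3p: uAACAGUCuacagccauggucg

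miR-212-3p: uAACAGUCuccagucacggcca

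Counted from the 5′ end of miR-132-3p, these arms have the same base at 17 of 22 positions and differ by A10C, C14U, U17C, U20C and G22A. Their 5p arms have no seed in common in the table, as the following sequences show for the RefSeq start of each arm and for the most frequent start of miR-132-5p in MIN6, which lies 1 base downstream.

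miR-132-5p, RefSeq start: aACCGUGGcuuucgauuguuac

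miR-132-5p, most frequent start: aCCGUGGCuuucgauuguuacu

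miR-212-5p: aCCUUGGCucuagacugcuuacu

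The remaining arms follow. The seeds of miR-184-3p, miR-338-3p and miR-338-5p are shared by no other mature miRNA of the table. The seed of miR-184-5p, an arm with very few reads, was not compared.

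miR-184-3p: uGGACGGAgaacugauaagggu

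miR-184-5p: cCUUAUCAcuuuuccagccagc

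miR-338-3p: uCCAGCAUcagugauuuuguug

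miR-338-5p: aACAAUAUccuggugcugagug

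Mir212 and Mir132 lie in this order on the plus strand of chromosome 11, at chr11:74986890-74986980 and chr11:74987184-74987249 (mm9), with starts 294 bases apart. In the GENCODE annotation of GRCm38, both lie in an intron of the noncoding transcript 1700016P03Rik on the same strand. Mir338 lies on the minus strand at chr11:119876079-119876176 (mm9), in an intron of Aatk, a gene for a neuronal kinase that is transcribed in the same direction. Mir184 lies on the minus strand at chr9:89697098-89697166 (mm9) and overlaps no other annotated gene. The opposite strand of Mir338 carries a further annotated hairpin, Mir3065. No library had a read on the opposite strand of any of the 4 hairpins, Mir3065 included, and 0 reads allow up to 0.324 RPM in the smallest library, where RPM is the number of reads scaled to 1000000 mapped reads.

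The deposited alignments summed to 9269795, 10816006 and 10218743 mapped reads in replicates 1, 2 and 3. Between 71.3% and 71.8% of these reads were aligned without a mismatch. Of the beta cell and endocrine markers, 3 of 4 were placed, from 435 RPM for miR-7a-5p to 37103 RPM for miR-182-5p. The missing marker was miR-375-3p. The Mir375 hairpin was placed, but this arm was assigned no locus, so it has no level or rank here. Of the listed markers of other cell types 4 were placed. These included miR-451a of red blood cells at 0.398 RPM, located only from its neighboring hairpins, and miR-126a-3p of endothelium at 26.04 RPM. The others were the neuronal miR-9-5p and miR-129-5p, which endocrine cells share, at 282 and 927 RPM. No marker of acinar cells, hepatocytes, fibroblasts or muscle was placed, so those cell types were not analysed here.

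The most abundant product of the 4 hairpins was miR-132-3p, the arm for which most targets of this locus are known. It had 437, 422 and 438 RPM in replicates 1, 2 and 3, from 4052, 4567 and 4477 reads. The libraries were close to each other (432 ± 8.87 RPM, SD, n = 3). Among the 356 arms of placed hairpins with at least 10 reads in every library, it stood at position 71 by mean RPM. Arms that were not placed, such as miR-375-3p and miR-30d-5p, are missing from this order. An arm with several genomic copies has its reads divided among them, as in miR-103-3p with 403 and 406 RPM at its loci. Such arms may stand lower than their summed level would place them. The partner of miR-132-3p with the same seed, miR-212-3p, had 131, 127 and 123 RPM (127 ± 3.82, SD, n = 3) and stood at position 134. Both arms together gave 568, 549 and 561 RPM for their common seed, of which miR-132-3p held the larger portion in every library. The ratio of miR-132-3p to miR-212-3p reads was 3.35, 3.33 and 3.56 (3.41 ± 0.129, SD, n = 3).

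The 5p arms of this locus had the opposite order. miR-212-5p, which had more reads than miR-212-3p in every library, was at 189, 172 and 132 RPM (165 ± 29.2, SD, n = 3), whereas miR-132-5p was at 43.4, 39.1 and 39.6 RPM (40.7 ± 2.32, SD, n = 3). The lowest library of miR-212-5p was still above the highest of miR-132-5p. The ratio of miR-132-5p to miR-212-5p reads was 0.252 ± 0.0412 (SD, n = 3). Within the hairpins, 91.4% ± 0.381 (SD, n = 3) of the Mir132 reads lay on the 3p arm, whereas the Mir212 reads were spread over both arms, with 56.2% ± 3.86 (SD, n = 3) on the 5p arm. In replicates 1, 2 and 3, the 5p share of Mir212 was 59.2%, 57.6% and 51.8%. The 95% Wilson interval of replicate 3, from 49.9% to 53.7%, did not overlap those of the other replicates, which began at 57.4% and 55.9%. These intervals cover counting error only.

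The arms of Mir212 differed in how far their levels varied between the libraries. The 95% Wilson intervals of miR-212-5p were 181 to 198 RPM, 164 to 180 RPM and 125 to 140 RPM in replicates 1, 2 and 3, with no overlap. For miR-212-3p they were 123 to 138, 120 to 134 and 116 to 130 RPM, and all of them overlapped. The ratio of miR-212-5p to miR-212-3p was 1.45, 1.36 and 1.08. With both arms summed, the ratio of Mir132 to Mir212 reads was 1.502, 1.54 and 1.87 (1.64 ± 0.202, SD, n = 3), and the highest value was again in replicate 3, where miR-212-5p was lowest.

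miR-184-3p, the arm that represses Argonaute2, had 128, 178 and 111 RPM (139 ± 34.5, SD, n = 3), from 1186, 1922 and 1139 reads. Replicate 2 stood above the others, and its 95% Wilson interval of 170 to 186 RPM did not overlap 121 to 135 RPM in replicate 1 or 105 to 118 RPM in replicate 3. Nearly all Mir184 reads came from this arm, 99.8% ± 0.0798 (SD, n = 3). The other arm, miR-184-5p, had 2, 2 and 3 reads, at or below the limit of 3 reads that a count of 0 allows. Its level is therefore not ordered against the other arms.

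miR-338-3p, the arm with known roles in beta cell mass, had 75.03, 66.4 and 75.4 RPM (72.3 ± 5.06, SD, n = 3), and its 95% Wilson intervals overlapped in all libraries. It held 79.1% ± 0.719 (SD, n = 3) of the Mir338 reads. The other arm, miR-338-5p, had 20.7, 17.4 and 19.1 RPM (19.1 ± 1.65, SD, n = 3). In the order of levels, miR-132-3p lay above all other arms of the 4 hairpins in every library, and miR-338-3p, miR-132-5p and miR-338-5p followed below without overlap. Between them lay miR-212-5p, miR-184-3p and miR-212-3p. The range of miR-184-3p overlapped those of both Mir212 arms, so it did not differ from either beyond the spread. The ranges of miR-212-5p and miR-212-3p did not overlap, but the lowest library of the former (132 RPM) was only just above the highest of the latter (131 RPM).

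**Figure D1:**
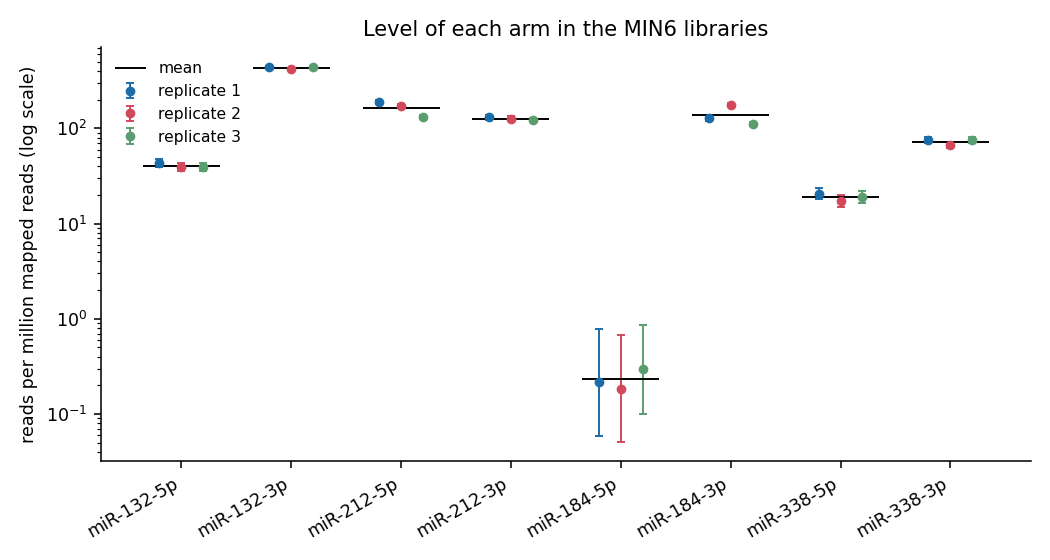
Level of the 8 arms in RPM (log axis) in MIN6 replicates 1, 2 and 3, with 95% Wilson intervals as bars and the mean over the libraries as a black line. miR-132-3p is highest at 432 RPM, miR-184-3p is raised in replicate 2 (178 RPM) and miR-212-5p is low in replicate 3 (132 RPM).

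Of a list of 23 miRNAs studied in beta cells, 15 were placed, and miR-375-3p was not. The placed miRNAs ranged from 0.133 RPM for miR-199a-5p to 37103 RPM for miR-182-5p, with a median of 435 RPM. In every library miR-199a-5p was under the limit of 3 reads. Against this list the 4 hairpins were of intermediate or low level. Of the 15 miRNAs, 8 had a mean above miR-132-3p, and 11 were above both miR-184-3p and miR-338-3p. The nearest above miR-132-3p was miR-7a-5p, with 435 ± 44.9 RPM (SD, n = 3). It was below miR-132-3p in replicate 3, at 384 compared with 438 RPM, so these 2 did not differ beyond the spread. The beta cell miRNAs below miR-338-3p included miR-146a-5p, a miRNA of inflammatory signaling, with 62.6 ± 10.9 RPM, and miR-335-5p, with 40.6 ± 4.71 RPM (SD, n = 3).

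For comparison with other miRNAs, 173 arms had at least 200 reads in every library and at least 90% of their reads in alignments with a whole-number count. Such a count was taken as a sign of a single locus, although reads divided evenly between loci can also give it. The coefficient of variation (SD divided by mean) of these arms had a median of 7.91%, with quartiles of 5.55% and 11.4%. miR-184-3p varied by 24.8%, and of the 172 other arms only miR-582-3p (40.4%) and let-7e-5p (28.6%) varied more. miR-212-5p varied by 17.8%, and 5 other arms varied more, namely those 3 with let-7b-5p (23.3%) and miR-346-5p (18.3%). Counting error alone would give 2.66% for miR-184-3p and 2.46% for miR-212-5p. By contrast, miR-132-3p varied by 2.05% and miR-212-3p by 3.01%, and 166 and 163 of the 172 other arms varied more. The values for miR-338-3p (7.002%) and miR-132-5p (5.70%) lay near or below the median.

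The arms whose levels over the 3 libraries were nearest to each abundant arm were taken by the root mean square difference of log2 RPM after centering. With 3 libraries such likeness is a description only. For miR-184-3p the nearest arm was let-7b-5p, at 2377, 3448 and 2329 RPM, with a distance of 0.07, followed by let-7e-5p, at 323, 516 and 325 RPM, with 0.10, and miR-501-3p with 0.15. Only the let-7 arms lay within 0.1 of miR-184-3p, and both were likewise highest in replicate 2. For miR-212-5p the nearest were miR-146a-5p, at 72.0, 65.2 and 50.6 RPM, miR-409-5p and miR-346-5p, and 20 arms lay within 0.1. The patterns of miR-132-3p and miR-338-3p were common, with 91 and 67 arms within 0.1. The nearest were miR-871-5p, miR-676-3p and miR-671-5p for miR-132-3p, and miR-130a-3p, miR-872-5p and miR-101b-3p for miR-338-3p.

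The 5′ starts were examined next, since they set the seed. Over all arms, 13 starts had at least 10 reads in every library. Most arms began at the RefSeq start, with 99.1% ± 0.193 of the reads for miR-212-3p, 98.7% ± 0.449 for miR-184-3p, 96.0% ± 0.869 for miR-338-3p and 95.5% ± 0.398 for miR-132-3p (SD, n = 3). The median share at the main start over the 173 arms was 98.2%. miR-132-5p began elsewhere, with 87.6%, 88.4% and 89.6% of its reads 1 base downstream of the RefSeq start and only 12.4%, 11.6% and 10.1% at it. This was the only one of these arms whose main start was shifted, and the libraries differed by a few percent of its reads. Shifted main starts were also found among the other arms of the comparison, such as miR-183-3p, miR-136-3p and miR-140-3p. The share of the compared arms with a shifted main start was not counted.

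The shifted start brought the 5p arm of Mir132 into register with that of Mir212. Counted from the most frequent start, miR-132-5p and miR-212-5p had the same base at 14 of 21 positions, compared with 9 of 22 from the RefSeq start. Within the seeds printed above, CCGUGGC and CCUUGGC, the difference was G4U, counted from the 5′ end of the most frequent miR-132-5p. miR-212-5p itself had a second start 1 base downstream, with 10.9% ± 0.385 (SD, n = 3) of its reads and the seed CUUGGCU, at 17.8 ± 2.63 RPM (SD, n = 3).

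miR-338-5p was the most heterogeneous arm, with 68.3% ± 5.79 (SD, n = 3) of its reads at the RefSeq start. A start 2 bases upstream had 24.5%, 21.8% and 30.8% of its reads, from 47, 41 and 60 reads. The commonest genome-matching stretch from each start is printed for comparison, with the seed in capitals, to show that the seeds differ. Mismatching last bases are left out. With them, the most frequent read length from the upstream start was 21 nt (55.4% of its reads).

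miR-338-5p, RefSeq start: aACAAUAUccuggugcugagu

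miR-338-5p, 2 bases upstream: cCAACAAUauccuggugcug

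At the RefSeq start, 80.8% of the reads ended at base 21 of the RefSeq arm, whereas from the upstream start 58.8% ended at base 18 and 25.7% at base 19. The upstream product therefore lay further toward the base of the hairpin at either end. The shifted starts of the other 3p arms were minor. For miR-132-3p, 2.95% ± 0.276 of the reads began 1 base and 1.49% ± 0.169 began 2 bases downstream, and for miR-338-3p 3.75% ± 0.798 began 1 base downstream (SD, n = 3).

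**Figure D2:**
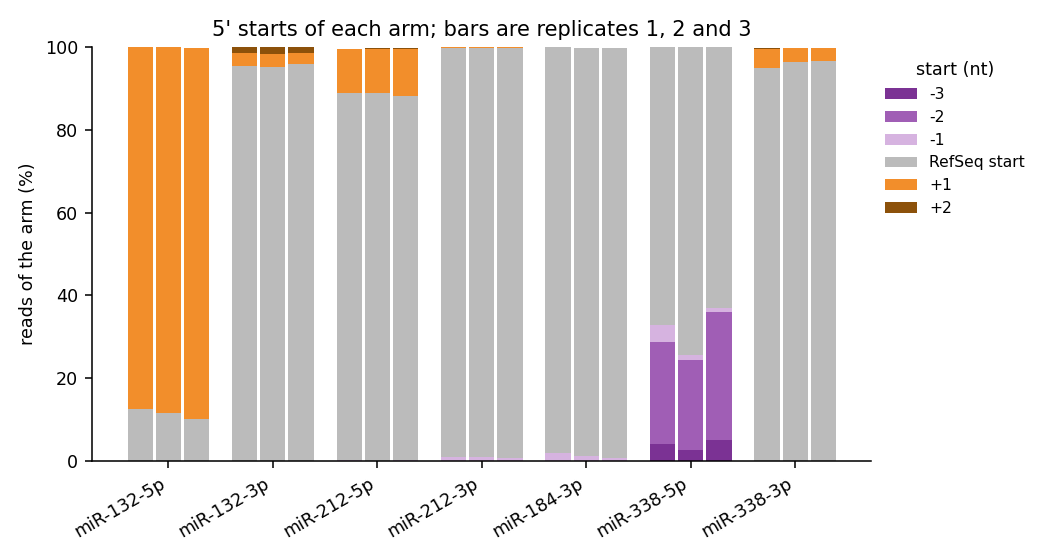
Share of the reads of each arm (%) by 5′ start relative to the RefSeq start, with 1 bar per MIN6 replicate in the order 1, 2 and 3, and miR-184-5p left out for its 7 reads in all. A shifted start dominates in miR-132-5p (88.5% on average), and in miR-338-5p the start 2 bases upstream holds 25.7%.

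The hairpin sequences were folded in silico to see how the most frequent 5p and 3p products face each other. The predicted minimum free energies were −37.2 kcal/mol for Mir132, −41.5 for Mir212, −29.0 for Mir184 and −41.9 for Mir338. At the loop side, where Dicer cuts, the most frequent products left a 3′ overhang of 2 bases in all 4 hairpins. At the base of the hairpin, where Drosha cuts, the overhang was 2 bases in Mir132 and Mir184 and 1 base in Mir212 and Mir338. The overhang of Mir184 rests on only 7 reads of miR-184-5p.

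The 3′ ends differed between the arms. miR-132-3p and miR-184-3p ended mostly at the RefSeq end, base 22, with 87.7% ± 0.946 and 86.4% ± 0.634 of their reads (SD, n = 3). miR-212-3p ended 1 base earlier than in RefSeq, at base 21, in 67.6% ± 1.91 of its reads, and miR-132-5p ended 1 base later, at base 23, in 74.96% ± 1.08. miR-338-3p had no dominant end, with 31.9% ± 2.47 at base 21, 44.8% ± 1.82 at base 22 and 19.1% ± 1.24 at base 23. For miR-212-5p, 61.1% ± 3.14 of the reads ended at base 23, the RefSeq end, and 28.6% ± 2.51 at base 24. In all of these the bases are those of the genome, counted from the RefSeq start, before any mismatching tail.

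Tails that do not match the genome were frequent on the 3p arms of the Mir132 and Mir212 locus and on miR-184-3p. A read was counted as tailed when its last base did not match. This held for 29.2%, 30.4% and 30.4% of the miR-132-3p reads (29.997% ± 0.713), for 23.5%, 22.9% and 19.2% of the miR-212-3p reads (21.8% ± 2.33) and for 20.2%, 14.7% and 19.8% of the miR-184-3p reads (18.2% ± 3.05; SD, n = 3). The median over the 173 arms was 8.64%, and over all libraries 18, 39 and 50 of the 172 other arms, respectively, were more often tailed. The lower share of miR-184-3p was that of replicate 2.

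Most of the tails were of U. Reads with U only made up 90.04% ± 0.766 of the tailed reads of miR-132-3p, 86.9% ± 1.31 of those of miR-184-3p and 76.4% ± 1.54 of those of miR-212-3p (SD, n = 3). In miR-132-3p a single U was added in 24.3% ± 0.473 of all reads of the arm, and 2 U in 2.57% ± 0.0187. Longer tails were more often found on miR-212-3p, where 3 or more U were added in 1.77% ± 0.177 of all reads, compared with 0.107% ± 0.00693 for miR-132-3p. Tails of A only were found in 249 reads of miR-132-3p and 84 reads of miR-212-3p over the 3 libraries. The most frequent tailed reads are printed with the added base in capitals.

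miR-132-3p: uaacagucuacagccauggucgU

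miR-212-3p: uaacagucuccagucacggccacU

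miR-184-3p: uggacggagaacugauaaggguU

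The tailed read of miR-132-3p alone had 2106 reads over the 3 libraries, or 16.1% of the arm. Those of miR-212-3p and miR-184-3p had 125 and 284 reads, or 3.26% and 6.69%.

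The tailed share depended on where the genome-matching portion ended. In miR-132-3p it was 33.0% for reads ending at base 22 and 6.43% for those ending at base 21. In miR-212-3p the share was 5.78% at the commonest end, base 21, whereas reads ending at base 22 were tailed in 55.1% and those ending at base 23 in 69.9%. In miR-184-3p the share was 14.3% at base 22 and 81.1% at base 23. An added base that equals the next base of the genome is counted as genome, so an end may include such reads, which are then not counted as tailed. For miR-212-3p and miR-184-3p the next base after the commonest end is A. After base 22 of miR-132-5p and miR-212-5p and base 21 of miR-184-3p the next base is U. The commonest ends of these arms may therefore include an added U.

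The spread of miR-184-3p between libraries differed between tailed and untailed reads. Tailed miR-184-3p had 25.8, 26.2 and 22.1 RPM in replicates 1, 2 and 3, a narrow range. Reads without a tail had 102, 152 and 89.3 RPM, so the higher level of replicate 2 lay in the untailed reads. The nearest arms by level, let-7b-5p and let-7e-5p, were highest in replicate 2 in both classes, with 179, 243 and 181 RPM and 23.9, 41.3 and 26.3 RPM of tailed reads. For miR-212-5p the tailed reads had 19.6, 18.4 and 14.6 RPM and the untailed reads 169.6, 154 and 118 RPM, and both classes were lowest in replicate 3.

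The other arms had fewer tails. The share was 12.8% ± 2.98 for miR-338-5p, 10.7% ± 0.323 for miR-212-5p, 1.38% ± 0.615 for miR-132-5p and 0.949% ± 0.424 for miR-338-3p (SD, n = 3). The last value is low among the 172 other arms, of which 161 were more often tailed. miR-132-5p and miR-338-3p had only 17 and 21 tailed reads over the 3 libraries. When a mismatch at any of the last 3 bases was counted, the share of miR-132-5p was 10.1% ± 1.15 (SD, n = 3), which includes the reads with A21C described further on.

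The tailed share of the shifted starts differed between the arms. In miR-212-5p, the start 1 base downstream was tailed in 32.1%, 29.3% and 39.2% of its reads, compared with 7.84%, 8.45% and 7.38% at the RefSeq start. In miR-338-5p, the start 2 bases upstream was tailed in 38.3%, 26.8% and 31.7%, compared with 3.10%, 2.85% and 4.88%. For these starts, the lowest library was above the highest library of the RefSeq start. In miR-132-3p this held for the rarer start 2 bases downstream, tailed in 75%, 81.8% and 66.7%, compared with 28.4%, 29.3% and 29.9% at the RefSeq start. The more frequent start of miR-132-3p, 1 base downstream, was tailed in 33.04%, 36.8% and 28.8%, which overlapped the RefSeq start. The start 1 base downstream also overlapped the RefSeq start in miR-338-3p, at 0.513% ± 0.888 compared with 0.839% ± 0.561, and in miR-132-5p, at 1.28% ± 0.403 compared with 2.31% ± 2.45 (SD, n = 3). The minor starts rest on few reads, with 196 over the 3 libraries for miR-132-3p and 148 for miR-338-5p. Some starts also differed in their ends. In miR-212-5p, 57.8% of the reads from the downstream start ended at base 24, compared with 25.3% from the RefSeq start. Reads ending there were tailed in 29.5%, and those ending at base 23 in 1.29%. In miR-338-5p, 53.0% were tailed at base 18 and 0.583% at base 21. In miR-132-3p both starts ended mostly at base 22 (78.6% and 87.8%). An effect of the start apart from the end was not tested. The commonest tailed reads of the shifted starts, with the added base in capitals, were the following.

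miR-212-5p, 1 base downstream: ccuuggcucuagacugcuuacugU

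miR-338-5p, 2 bases upstream: ccaacaauauccuggugcugU

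They had 117 and 38 reads over the 3 libraries, or 2.36% and 6.60% of their arms.

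**Figure D3:**
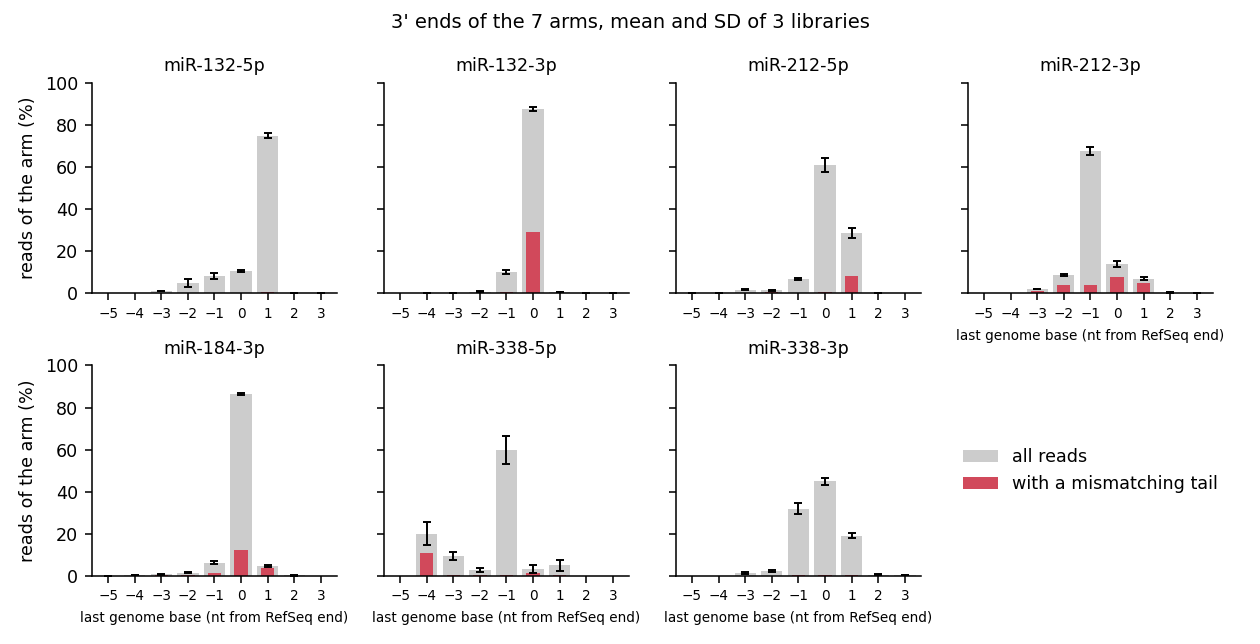
Share of the reads of 7 arms (%) by the last genome-matching base relative to the RefSeq 3′ end, as mean and SD of the 3 MIN6 libraries in gray, with the portion carrying a mismatching tail in red. Tails follow the main end in miR-132-3p (33.0% of those reads) but the later and earlier ends in miR-212-3p, and are nearly absent from miR-338-3p.

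**Figure D4:**
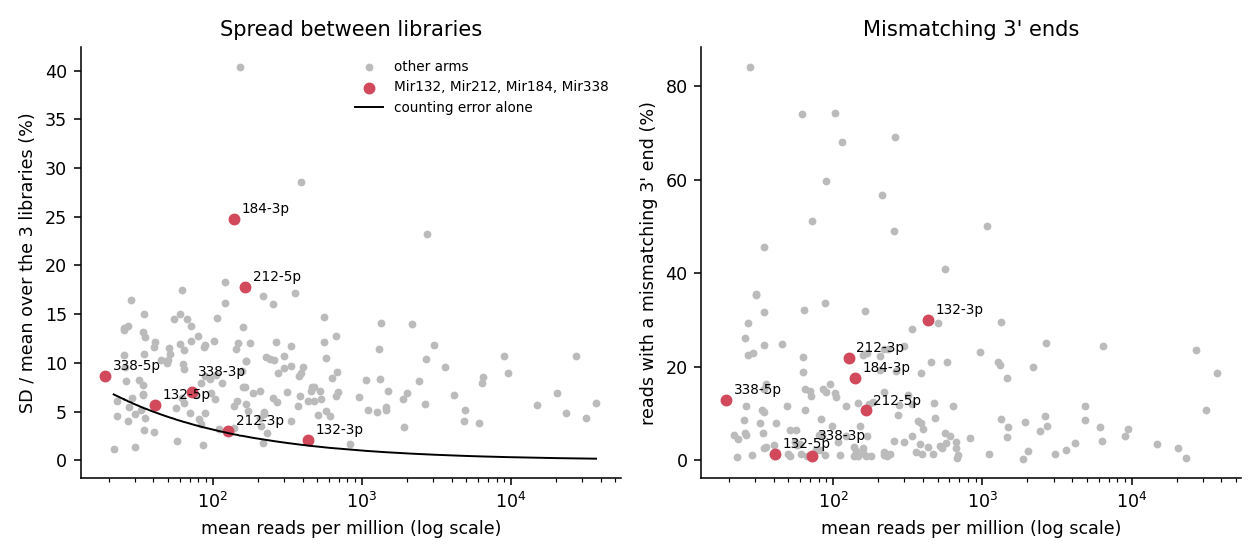
Spread between libraries (SD divided by mean, %, left) and reads with a mismatching 3′ end (%, right) against mean RPM (log axis) for the 173 compared arms in gray and 7 arms of the 4 hairpins in red. The black line is the spread from counting error alone, and miR-338-5p, which has under 200 reads per library, is shown without being among the 173. miR-184-3p (24.8%) and miR-212-5p (17.8%) lie high on the left, and miR-132-3p (30.03%) lies highest of the 7 on the right.

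Mismatches inside the reads were dominated by A recorded as C. In miR-132-3p the substitutions A12C and A10C, counted from the 5′ end of the arm, were found in 15.6% ± 1.26 and 9.78% ± 0.659 of the reads. A12C was found in 20.9% ± 1.21 of the miR-212-3p reads and 19.6% ± 1.39 of the miR-212-5p reads, and A10C in 16.7% ± 0.853 of the miR-338-3p reads and 12.8% ± 0.842 of the miR-184-3p reads (SD, n = 3). Such mismatches had similar shares in other arms at the same position of the read. At position 12 of the read, A was recorded as C in 17.8% of the reads of the 4 hairpins and 18.6% of those of the other compared arms, and at position 10 in 11.7% and 11.8%. In miR-132-5p the substitution A21C, which is position 20 of its main product, was found in 8.44% ± 1.17 of the reads. At position 20 the other arms had 10.4%, but the count by position left out most of the miR-132-5p reads. It held 325 reads with A at position 20 for the 4 hairpins, whereas the main start of miR-132-5p alone had 1089 reads. These shares therefore come from unlike sets of reads. At positions 13 to 15 of the other arms, A was recorded as C in at most 0.0252%. A10C is also one of the 5 differences between miR-132-3p and miR-212-3p. Of the reads, 99.96% for miR-132-3p and 99.99% for miR-212-3p lay in alignments with a whole-number count. Reads divided evenly between loci can also give a whole number, so an exchange of reads between these arms was not tested.

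**Figure D5:**
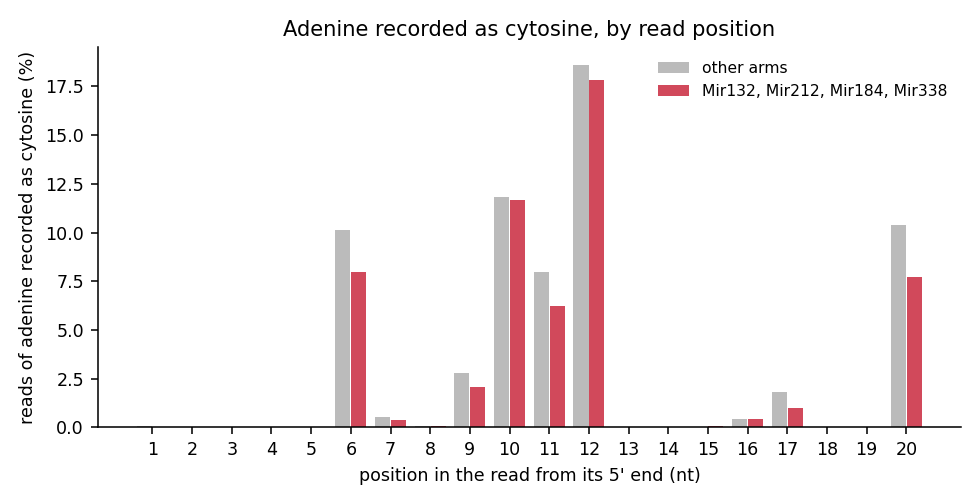
Reads with an A of the genome recorded as C (%) by position in the read, for the 4 hairpins in red and the other compared arms in gray, pooled over the 3 MIN6 libraries. Both sets peak at positions 6, 10, 11, 12 and 20, with 17.8% and 18.6% at position 12. At position 20 the count held only 325 reads with A for the 4 hairpins.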

How the data were processed

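Small RNA from MIN6 cells was sequenced on the Illumina HiSeq from TruSeq libraries. According to the submitters' processing notes and the study's methods, the authors removed the adaptor with cutadapt, aligned exact reads to mm9 with Bowtie, and aligned the remaining reads with mismatches to the regions that had exact reads. The deposited values are expected counts, the number of reads behind each alignment, with a read of several equally good loci divided among them. They are not normalized, and replicates were not pooled. A miRNA without exact reads is therefore missed. Starts were counted from 0 in the deposited alignments, and exact alignments ended 1 base early, and both were corrected.

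Python 3.11.15, numpy 2.4.6 and pandas 2.3.3 were used. RefSeq hairpins were placed by sequence where no base was excluded by a mismatch. The match had to carry at least 20 bits, at loci with at least 10 reads. Mir338 and Mir184 passed with only 23.3 and 24.15 bits (next best place 9.06 and 9.81), and Mir132 and Mir212 with 49.89 and 56.89. No reversed hairpin was placed. The placing by sequence was tested on simulated data, but their mismatches lay at random positions of the read, unlike those of the libraries. Other hairpins were placed only where the nearest placed hairpins on both sides shared the same coordinate offset. Of the listed miRNAs, miR-451a, miR-199a-5p and miR-463-3p were placed in this way. Reads starting within 5 bases of a RefSeq arm start were assigned to that arm, and RPM is relative to all mapped reads. Hairpins were folded with RNAfold 2.7.2. Depth was 9269795 to 10816006 reads. The 95% Wilson intervals reflect counting error alone, because molecules were not tagged with identifiers, and 0 reads allow up to 3. RPM compares read numbers, which need not be molecule numbers.

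The members and lists were chosen with earlier results of these data known. The named miRNAs are the 8 arms, their 5′ starts with at least 10 reads in every library, Mir3065, miRNAs with the same seed, the 3 arms nearest in level to each abundant arm, and the list of beta cell miRNAs. Arms with a higher coefficient of variation were named after their values were seen. All libraries share 1 condition, so no test was made. Alternatives were exact reads only, reads in alignments of whole-number counts only (taken as single-locus), and reads of 18 to 25 nt. Further alternatives were another denominator, the main start only, another definition of a tail, other minimum reads per start, and leaving out each replicate.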

Additional observations from a re-analysis of the deposited data

How the results depend on the processing

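Exact alignments alone removed tailed and A-to-C reads and lowered the levels to 217.7 RPM for miR-132-3p, 114 for miR-212-5p, 89.7 for miR-184-3p and 57.7 for miR-338-3p. They gave dominant-arm shares of 85.8% (miR-132-3p), 60.1% (miR-212-5p) and 99.7% (miR-184-3p), main-start shares of 96.0% (miR-132-3p), 90.9% (miR-212-5p) and 77.1% (miR-338-5p), and ratios of 2.93 for miR-132-3p to miR-212-3p and 1.36 for Mir132 to Mir212. With the reads within placed hairpins as denominator, the levels were 603 RPM for miR-132-3p, 229 for miR-212-5p, 194 for miR-184-3p and 101 for miR-338-3p. With the main 5′ start only, miR-132-3p had 413 RPM, and the tailed shares were 29.2% for miR-132-3p, 7.89% for miR-212-5p and 3.61% for miR-338-5p. With a mismatch at any of the last 3 bases, the tailed shares were 10.1% for miR-132-5p, which then include A21C, and 11.7% for miR-212-5p. Reads of 18 to 25 nt and reads taken as single-locus moved none of the values computed with them by more than the spread between replicates. The number of 5′ starts was 16 with a minimum of 3 reads and 12 with a minimum of 30 reads in every library, compared with 13.

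With each replicate left out in turn, the levels ranged from 430 to 438 RPM for miR-132-3p, from 120 to 153 RPM for miR-184-3p, from 152 to 181 RPM for miR-212-5p and from 70.7 to 75.2 RPM for miR-338-3p. The dominant-arm share ranged from 91.2 to 91.6% for miR-132-3p, from 99.8 to 99.9% for miR-184-3p, from 54.7 to 58.4% for miR-212-5p and from 78.8 to 79.5% for miR-338-3p. The main-start share ranged from 95.3 to 95.7% for miR-132-3p, from 88.0 to 89.0% for miR-132-5p, from 98.5 to 98.9% for miR-184-3p, from 99.0 to 99.1% for miR-212-3p, from 88.5 to 88.9% for miR-212-5p, from 95.7 to 96.5% for miR-338-3p and from 65.1 to 70.9% for miR-338-5p. The tailed share ranged from 29.8 to 30.4% for miR-132-3p, from 1.08 to 1.70% for miR-132-5p, from 17.3 to 19.997% for miR-184-3p, from 21.04 to 23.2% for miR-212-3p, from 10.5 to 10.9% for miR-212-5p, from 0.709 to 1.11% for miR-338-3p and from 11.5 to 14.5% for miR-338-5p. The ratio of miR-132-3p to miR-212-3p ranged from 3.34 to 3.45, and that of Mir132 to Mir212 from 1.52 to 1.71.

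No paired analysis was possible because the study holds a single condition. Depth limits the minor products most, and miR-184-5p had 7 reads over all libraries.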
